A study of Homo sapiens with 43 samples.

Results

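The 7 genes described here, SRSF1, SRSF2, SRSF3, SRSF6, SRSF7, TRA2A and TRA2B, encode splicing factors of the serine/arginine-rich (SR) family and its TRA2 relatives. They were chosen by name, and every peak that overlapped the span of one of them by at least 1 nt on the same strand was assigned to it. Over the 25 peak lists of the series this gave 1924 of the 1430241 called peaks, and each gene held at least 1 called peak in each of the 25 libraries.

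SR proteins bind exonic and other splicing enhancers through RNA recognition motifs and recruit the splicing machinery through domains rich in arginine and serine. They keep their own levels in bounds through poison exons, which lie within highly conserved stretches of their genes. Inclusion of such an exon brings a premature stop codon into the messenger RNA, which is then degraded by nonsense-mediated decay. Each of the 7 genes is known for such an exon or an equivalent non-coding splice form, so proteins that bind their transcripts are of interest as possible regulators of that choice.

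The libraries were made by eCLIP, in which RNA is crosslinked to protein with ultraviolet light, trimmed with RNase I, immunoprecipitated, cut from a protein gel together with the protein and sequenced. All came from HEK293T, a human embryonic kidney line. The 11 libraries of RNA-binding proteins (RBPs) fell into tagged libraries, made with an antibody against a tag integrated into the endogenous gene, and wild-type libraries, made with an antibody against the protein. The tagged ones were HNRNPC V5 isoform 1, HNRNPC V5 isoform 2, RBFOX2 V5, LIN28 V5, FMR1 FLAG and DGCR8 FLAG, and the wild-type ones were HNRNPC, RBFOX2, LIN28, FMR1 and DGCR8. A further 14 libraries carried the labels FLAG-only or V5-only and no RBP, 1 for each antibody and each of 7 gel ranges between 25 and 250 kDa. The labels do not say whether the cells of these tag-only libraries expressed a tag, how many clones a tagged line came from, or which LIN28 paralog was profiled. Tagged and wild-type forms of an RBP were profiled once each, so a difference between 2 such libraries has no replicate check. Only FLAG-only and V5-only could be tested against each other, over the 7 ranges.

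Each peak carries the authors' log2 fold over a size-matched input and the authors' −log10 p. A peak is called significant here at a log2 fold of at least 3 (8-fold) and a −log10 p of at least 3. The lists give no read totals, so the depth of a library is unknown, and intervals on shares of peaks are exact binomial (Clopper-Pearson) intervals that cover counting error only. Neighbouring peaks of a gene are not independent, which makes these intervals too narrow. Beside a count of 0 the limit is that of 3 peaks over the called peaks, which is lower than the upper end of the exact interval in the plot of shares. Positions are in hg19, counted from 1. Places within a gene are given in nt from the 5′ end of its span, because no hg19 exon annotation or genome was used here, so whether a peak lies in an exon, an intron, a UTR or a poison exon is not given.

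The spans were of unequal length. SRSF1 covers 6428 nt of chromosome 17 (56078280 to 56084707, minus strand), and SRSF2 covers 3297 nt of the same chromosome (74730197 to 74733493, minus). SRSF3 covers 10155 nt of chromosome 6 (36562090 to 36572244, plus), and SRSF6 covers 5742 nt of chromosome 20 (42086504 to 42092245, plus). SRSF7 covers 7896 nt of chromosome 2 (38970741 to 38978636, minus). TRA2A covers 27262 nt of chromosome 7 (23544399 to 23571660, minus), and TRA2B covers 22231 nt of chromosome 3 (185633694 to 185655924, minus). Called peaks were densest in SRSF2 and SRSF1, with medians over the 25 libraries of 2.12 and 2.02 called peaks per kb, and sparsest in TRA2A, with 0.18 per kb.

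HNRNPC, RBFOX2 and LIN28 had significant peaks in these genes, and FMR1 and DGCR8 had none. The 11 RBP libraries held 49 significant peaks among 818 called ones, of which 19 came from HNRNPC, 19 from LIN28 and 11 from RBFOX2. With the libraries of an RBP pooled, HNRNPC peaks were spread over all 7 genes, LIN28 peaks over 5 and RBFOX2 peaks over 3. By library, HNRNPC had them in 4 genes in isoform 1, 3 in isoform 2 and 5 in wild type. LIN28 had them in 5 genes in V5 and 1 in wild type, and RBFOX2 in 3 in V5 and 2 in wild type. SRSF1 carried 18 of the 49, SRSF3 10, SRSF6 and TRA2B 6 each, TRA2A 5, and SRSF2 and SRSF7 2 each.

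**Figure D1:**
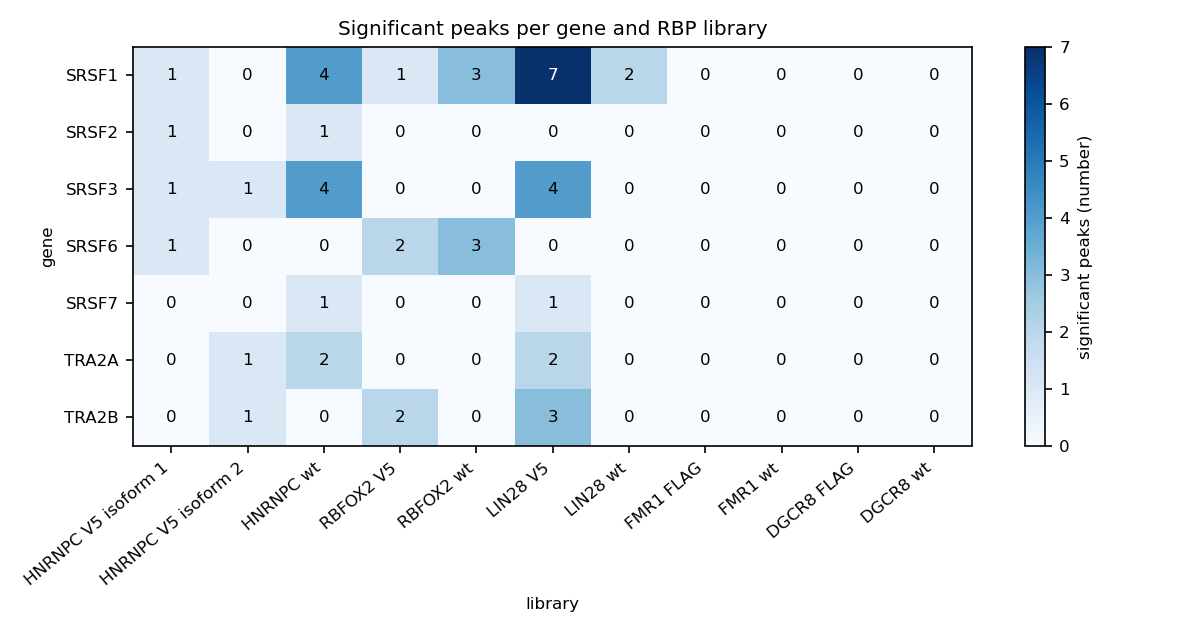
Number of significant peaks (colour and figure in each cell) for the 7 genes (rows) in the 11 RBP libraries (columns), with tagged libraries left of the wild-type library of the same RBP. LIN28 V5 had 7 peaks in SRSF1, and the 4 FMR1 and DGCR8 columns are at 0 throughout.

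HNRNPC, a core component of the particles that package nascent transcripts and a binder of uridine tracts, had a higher share of significant peaks in these genes than in its lists as a whole. HNRNPC V5 isoform 1 had 4 significant peaks among 87 called (4.60%, interval 1.27% to 11.4%), against 0.760% of all its called peaks. HNRNPC V5 isoform 2 had 3 among 78 (3.85%, 0.80% to 10.8%), against 1.97%. HNRNPC wild type had 12 among 85 (14.1%, 7.51% to 23.4%), against 2.15%. The share for the genes was above the share for the whole list in each of the 3 libraries, and the interval excluded the whole-list share in isoform 1 and in wild type but not in isoform 2. With the −log10 p raised to 5, the share was 1.15% in isoform 1, 0 in isoform 2 and 10.6% in wild type, against 0.205%, 0.668% and 0.852% of the whole lists, so that isoform 2 was no longer above its list. The median log2 fold of called peaks in the genes was 1.56 in isoform 1, 1.17 in isoform 2 and 1.73 in wild type, against 1.11, 1.19 and 1.05 over all called peaks of those lists.

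RBFOX2, a splicing regulator that binds GCAUG motifs, and LIN28, which binds microRNA precursors and many messenger RNAs, had shares that could not be told apart from those of their whole lists by the intervals. RBFOX2 V5 had 5 significant peaks among 69 called (7.25%, interval 2.40% to 16.1%), against 4.0% of all its peaks, and RBFOX2 wild type had 6 among 65 (9.23%, 3.46% to 19.0%), against 7.03%. LIN28 V5 had 17 among 102 (16.7%, 10.0% to 25.3%), against 10.6%, and LIN28 wild type had 2 among 63 (3.17%, 0.387% to 11.002%), against 4.73%. In each of these 4 libraries the whole-list share lay inside the interval of the genes. The 17 LIN28 V5 peaks formed 11 sites once directly abutting peaks were joined.

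FMR1, a repressor of translation whose loss causes fragile X syndrome, had no significant peak in the 7 genes with either antibody. FMR1 FLAG had 0 of 87 called peaks, which allows a share of up to 3.45%, although 17.2% of all its called peaks were significant. FMR1 wild type had 0 of 75, which allows up to 4.0%, against 5.23% of all its peaks. The upper ends of the exact intervals were 4.15% in FMR1 FLAG and 4.80% in FMR1 wild type, both below the shares of the whole lists. The highest log2 fold in any of the genes was 2.09 in FMR1 FLAG, in TRA2A, and 2.55 in FMR1 wild type, in TRA2B, and the −log10 p of these peaks was 1.55 and 0.99. Peaks below input, with a negative log2 fold, made up 40.2% of FMR1 FLAG peaks in the genes against 4.56% of all its peaks, and 22.7% of FMR1 wild-type peaks in the genes against 7.64%. The median log2 fold in the genes was 0.22 in FMR1 FLAG and 0.38 in FMR1 wild type, against 2.09 and 1.55 over the whole lists. Low folds in these genes were not particular to FMR1. The median was below that of the whole list in 21 of the 25 libraries, and the negative share was above it in 9 of the 11 RBP libraries. RBFOX2 had negative shares in the genes of 23.2% in V5 and 23.1% in wild type, against 12.6% and 12.7% of all its peaks.

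DGCR8, which holds primary microRNA hairpins for cleavage by DROSHA, also had no significant peak there. DGCR8 FLAG had 0 of 48 called peaks, which allows a share of up to 6.25%, against 1.78% of all its peaks, so that a share at its background was not detectable in these genes. DGCR8 wild type had 0 of 59, which allows up to 5.08%, against 4.16%, and the same holds for it. The median log2 fold in the genes was 1.06 in DGCR8 FLAG and 0.52 in DGCR8 wild type, against 1.67 and 1.74 over the whole lists.

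**Figure D2:**
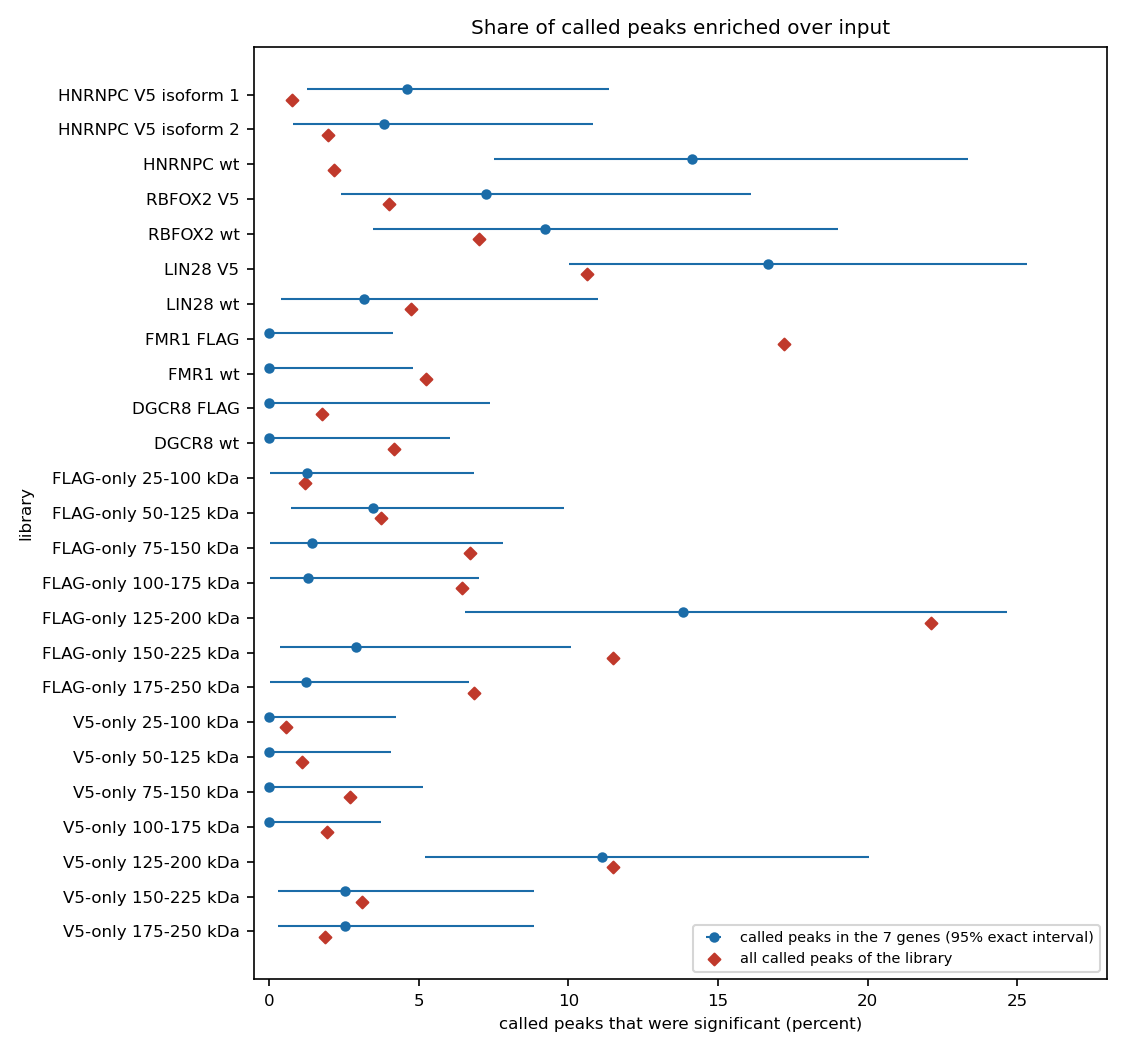
Percent of called peaks that were significant (horizontal axis) in each of the 25 libraries (rows), for the 7 genes (circles, with 95% exact binomial intervals) and for all called peaks of the library (diamonds). The circle of HNRNPC wild type, at 14.1%, lies far right of its diamond at 2.15%, and that of FMR1 FLAG, at 0, far left of its diamond at 17.2%.

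SRSF1, the prototype SR protein and an activator of exon inclusion, had significant peaks of 3 RBPs, of which RBFOX2 lay apart and HNRNPC and LIN28 interleaved. All 4 RBFOX2 peaks lay between 436 and 685 nt from the 5′ end, whereas the 9 LIN28 peaks lay between 2124 and 3492 nt and the 5 HNRNPC peaks between 2573 and 3605 nt. None lay beyond 3605 nt of the 6428 nt span.

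The RBFOX2 site at 436 to 596 nt (chromosome 17, 56084112 to 56084272) had log2 folds of 4.05 in RBFOX2 V5 and 3.91 in RBFOX2 wild type, its highest fold in each, with −log10 p values of 7.08 and 14.1. No other RBP library and no tag-only library had a called peak there. A further wild-type peak at 651 to 685 nt reached a log2 fold of 3.44.

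LIN28 had its strongest peaks of the 7 genes in SRSF1. At 2124 to 2264 nt (56082444 to 56082584) the log2 fold was 4.98 in LIN28 V5 and 3.47 in LIN28 wild type, with −log10 p values of 38.6 and 14.6. That V5 peak ranked 1192 by fold among the 73182 called peaks of its library. The site was also called in 6 tag-only libraries, with log2 folds between −0.17 and 0.97, and in DGCR8 FLAG and DGCR8 wild type, with 2.57 and −0.90, none of them significant. The third LIN28 site of the gene, at 3406 to 3492 nt, had a log2 fold of 3.35 in LIN28 V5 and 2.05 in LIN28 wild type.

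The region at 2722 to 2799 nt (56081909 to 56081986) was the only one of the 7 genes significant in 3 RBP libraries. Its log2 folds were 3.02 in HNRNPC V5 isoform 1, 4.29 in LIN28 V5 and 3.0 in LIN28 wild type, so that the LIN28 wild-type and the isoform 1 values lay at the threshold. HNRNPC V5 isoform 2, HNRNPC wild type and all 14 tag-only libraries had no called peak in it.

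HNRNPC wild type had 4 significant SRSF1 peaks, at 2573 to 2596, 2623 to 2645, 3237 to 3244 and 3566 to 3605 nt, with log2 folds of 4.05, 3.92, 3.98 and 3.16. Peaks had been called at each of these places in both tagged isoforms as well, with log2 folds from 1.40 to 1.97 in isoform 1 and from 0.81 to 3.34 in isoform 2. None of the tagged values was significant, the value of 3.34 having a −log10 p of 2.38.

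SRSF2, whose protein recognises both pyrimidine-rich and purine-rich exonic motifs, had 1 RBP site. It lay at 2012 to 2085 nt (chromosome 17, 74731409 to 74731482), with HNRNPC log2 folds of 3.33 in isoform 1, 1.73 in isoform 2 and 3.45 in wild type. The −log10 p values were 7.17, 3.23 and 13.9. In the other RBP libraries called there, FMR1, DGCR8, LIN28 V5 and RBFOX2 wild type, the log2 folds ran from −0.61 to 0.23. The site was called in 8 tag-only libraries at log2 folds from 0.25 to 2.72, none significant.

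SRSF3, the smallest member of the family and a factor in alternative splicing and messenger RNA export, held the strongest HNRNPC peak of the 7 genes. At 6710 to 6759 nt (chromosome 6, 36568799 to 36568848) HNRNPC wild type had a log2 fold of 5.39, the rank 6 by fold among its 63020 called peaks. The tagged isoforms had 2.54 in isoform 1 and 2.30 in isoform 2 there, with −log10 p values of 4.36 and 4.84. The place was called in 9 tag-only libraries, with a median log2 fold of 1.99, and was significant in V5-only at 125 to 200 kDa, at 3.10. Of these libraries 7 were V5-only, with a median of 2.01, and 2 were FLAG-only, with a median of 0.47.

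A second SRSF3 site, at 7210 to 7246 nt (36569299 to 36569335), had HNRNPC log2 folds of 2.25 in isoform 1, 3.23 in isoform 2 and 4.66 in wild type. It was called in no library of another RBP and in none of the 14 tag-only libraries. Isoform 2 and wild type were above the threshold, and isoform 1 was below it. Downstream of it, LIN28 V5 had 3 abutting significant peaks at 7408 to 7483 nt, with a highest log2 fold of 3.91, where LIN28 wild type had 1.51. FLAG-only at 125 to 200 kDa was significant at the edge of that stretch, with a log2 fold of 3.57.

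The other SRSF3 peaks were each significant in 1 library. HNRNPC wild type had log2 folds of 3.59 at 4088 to 4103 nt and 3.64 at 8051 to 8092 nt, where the tagged isoforms had 2.11 and 2.55 in isoform 1 and 1.87 and 1.31 in isoform 2. HNRNPC V5 isoform 1 had 3.32 at 3777 to 3804 nt, where wild type had no called peak. A LIN28 V5 peak at 7650 to 7669 nt, with 3.27, was nearly flat in LIN28 wild type, at 0.07. Among the SRSF3 sites, then, the lone ones came from HNRNPC and LIN28, and RBFOX2 had none in this gene.

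SRSF6, an SR protein known among other targets for the splicing of the tau transcript, carried the strongest RBFOX2 wild-type peaks, whereas its RBFOX2 V5 peaks were the lowest of the 5 in that library. At 1177 to 1286 nt (chromosome 20, 42087680 to 42087789) the log2 fold was 3.17 in RBFOX2 V5 and 4.98 in RBFOX2 wild type, and at 1019 to 1141 nt (42087522 to 42087644) it was 3.13 in RBFOX2 V5 and 4.49 in RBFOX2 wild type. The wild-type −log10 p values were 31.9 and 65.0. No other RBP library and no tag-only library was called at the first of these sites. The second was called in 4 tag-only libraries, with log2 folds of at most 1.25.

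Upstream of both, RBFOX2 wild type had a peak at 845 to 911 nt with a log2 fold of 3.58 and a −log10 p of 84.3, the highest −log10 p of any significant peak in the 7 genes. RBFOX2 V5 had a log2 fold of 0.75 there, and the 12 tag-only libraries called there had between −0.25 and 1.07. HNRNPC was below input at the same place, at −2.37 in V5 isoform 2 and −1.74 in wild type. HNRNPC had a single significant SRSF6 peak, at 3581 to 3621 nt in V5 isoform 1, with a log2 fold of 3.81, against 1.66 in isoform 2 and 2.09 in wild type. Its −log10 p of 3.75 missed the stricter level of 5.

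SRSF7, an SR protein with a zinc knuckle beside its RNA recognition motif, had 2 significant RBP peaks, and both lay at places that were also significant in a tag-only library. LIN28 V5 had a log2 fold of 3.15 at 1382 to 1472 nt (chromosome 2, 38977165 to 38977255) and LIN28 wild type had 1.36. That place was called in all 14 tag-only libraries and was significant in FLAG-only at 125 to 200 kDa, at 3.16. HNRNPC wild type had 3.02 at 2998 to 3054 nt (38975583 to 38975639), where the tagged isoforms had 1.69 in isoform 1 and 2.27 in isoform 2, and V5-only at 150 to 225 kDa had 4.64. This second place was called in 6 V5-only libraries and in no FLAG-only library. The part of antibody background in these peaks was not tested.

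TRA2A and TRA2B, which bind GAA-rich enhancers and activate exons together with SR proteins, had long spans. Significant RBP peaks were few for that length, at 0.18 per kb in TRA2A and 0.27 in TRA2B, with SRSF7 between them at 0.25. TRA2A also had few called peaks, and 5 of its 45 called RBP peaks were significant. In TRA2B it was 6 of 245 and in SRSF7 2 of 104, against 49 of 818 over the 7 genes. HNRNPC wild type had a log2 fold of 5.01 at 62 to 106 nt of TRA2A (chromosome 7, 23571555 to 23571599), close to the 5′ end. No other library, RBP or tag-only, had a called peak at that place. Near the other end, at 26631 to 26657 nt (23545004 to 23545030), the HNRNPC log2 folds were 2.32 in isoform 1, 4.11 in isoform 2 and 2.98 in wild type, the last just under the threshold. Within 50 nt of it, HNRNPC wild type had a significant peak at 26541 to 26587 nt, with 3.54 against 2.69 in isoform 1 and 2.10 in isoform 2. LIN28 V5 had 3.30 at 6378 to 6418 nt and 4.15 at 19064 to 19105 nt, and LIN28 wild type had no called peak at either place.

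In TRA2B, 1 region brought different RBPs together. At 20569 to 20768 nt (chromosome 3, 185635157 to 185635356) the log2 fold was 4.39 in RBFOX2 V5 and 2.50 in RBFOX2 wild type, and 3.24 in LIN28 V5 and 2.17 in LIN28 wild type. HNRNPC V5 isoform 1 reached 3.11 there with a −log10 p of 2.01, and HNRNPC wild type had 1.64. Only the V5 values of RBFOX2 and LIN28 were significant, the RBFOX2 wild-type peak did not overlap the RBFOX2 V5 one, and no tag-only library had a called peak in the region. The remaining TRA2B sites were each significant in 1 library. RBFOX2 V5 had 3.21 at 6623 to 6678 nt, against 2.14 in RBFOX2 wild type, and LIN28 V5 had 3.15 at 16010 to 16016 nt, against 2.0 in LIN28 wild type. The LIN28 place was called in 12 tag-only libraries, with a median of 1.79 and a high of 2.61, none significant. HNRNPC V5 isoform 2 had 3.02 at 19157 to 19206 nt, against 2.82 in HNRNPC wild type, so that each of these lay near the threshold.

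**Figure D3:**
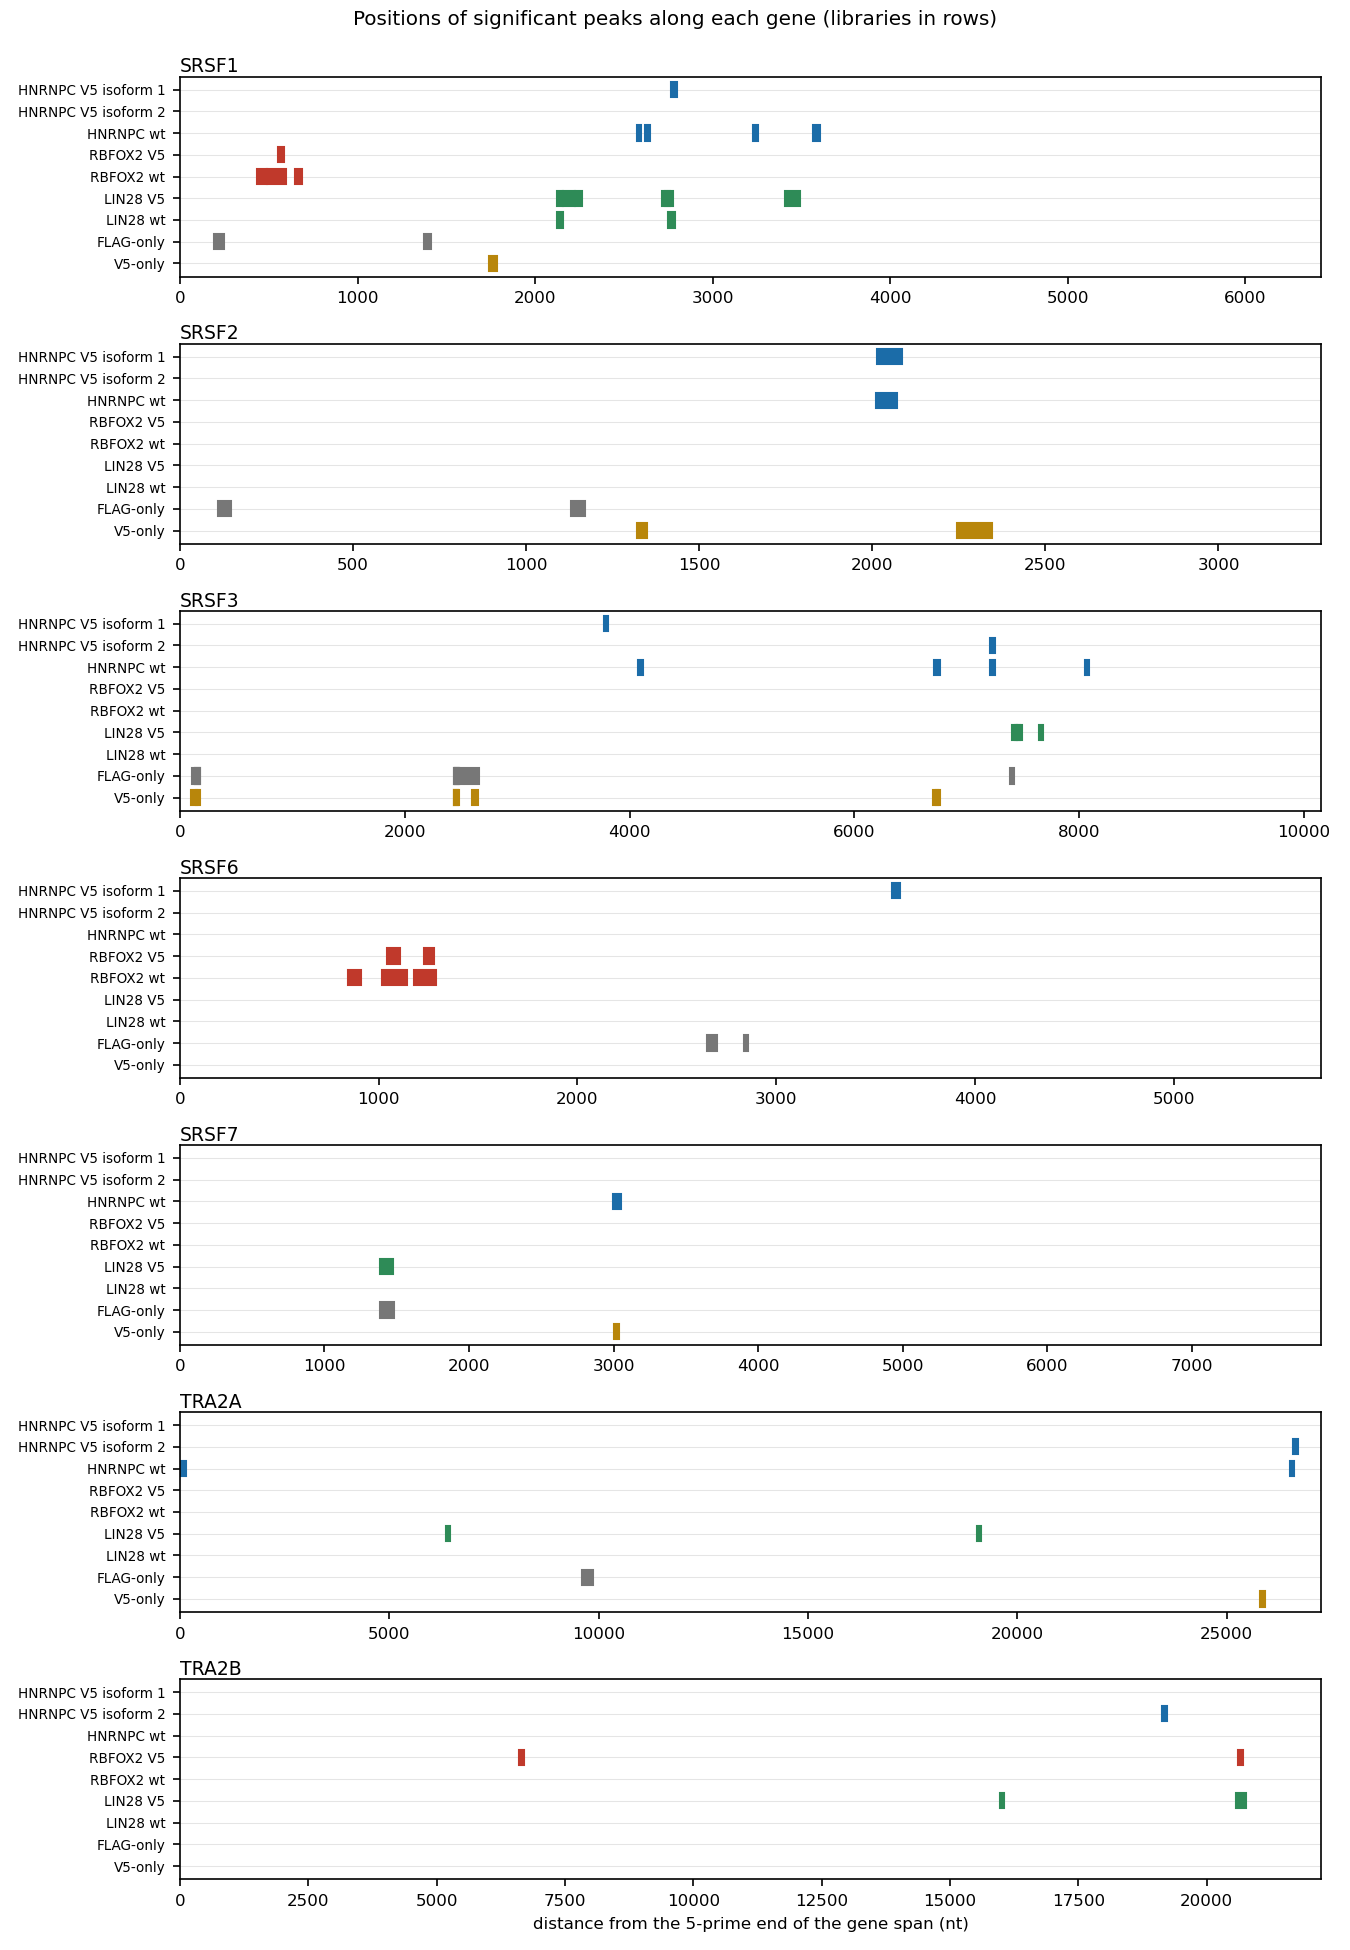
Positions of significant peaks (bars, narrow ones widened to stay visible) along the 7 genes, in nt from the 5′ end of the span, with a row for each RBP library that had any and a row each for the FLAG-only and V5-only libraries pooled. RBFOX2 bars in SRSF1 and SRSF6 lie towards the 5′ end, at 436 to 685 nt and 845 to 1286 nt, and the HNRNPC and LIN28 bars of SRSF1 lie between 2124 and 3605 nt.

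Joining overlapping or abutting significant peaks of the 11 RBP libraries gave 32 regions. Of these, 24 were significant in 1 RBP library, 8 in at least 2 and 1 in at least 3. Significance for more than 1 RBP was seen in 2 regions. They were the SRSF1 region shared by HNRNPC and LIN28 and the TRA2B region shared by RBFOX2 and LIN28. At a −log10 p of at least 5 neither was shared any longer, although LIN28 V5 peaks remained significant in both. Regions were not counted in this way over the whole lists, so whether sharing was low or high in these genes was not tested.

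**Figure D4:**
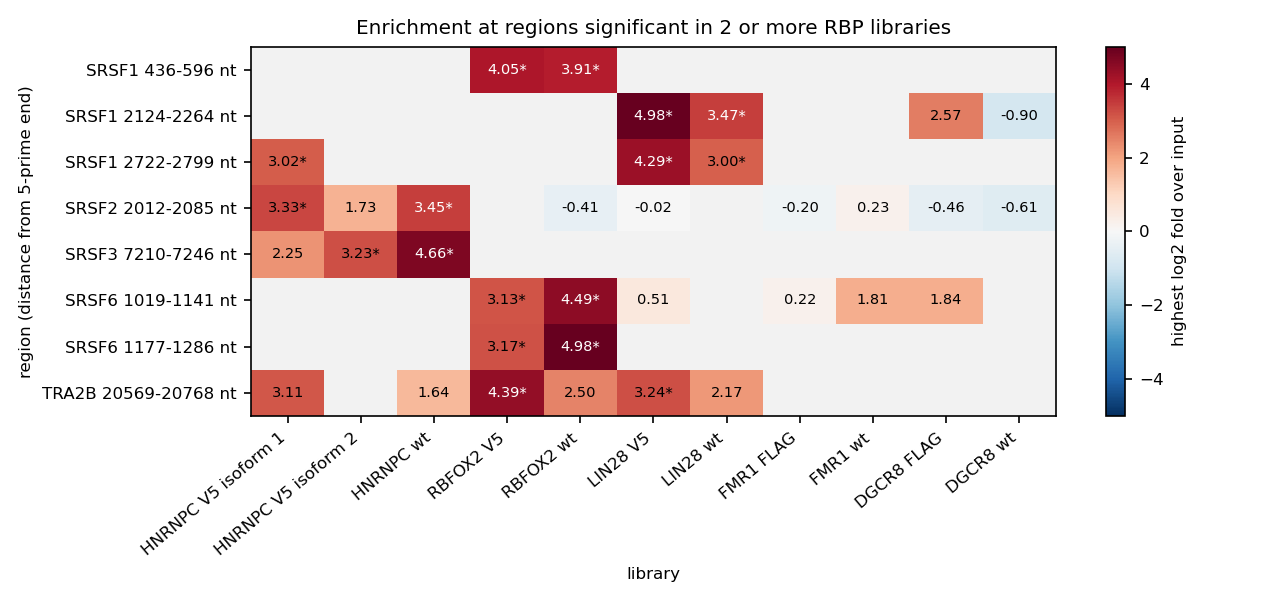
Highest log2 fold over input (colour and figure) at the 8 regions significant in 2 or more RBP libraries (rows, named by distance from the 5′ end) in each RBP library (columns). An asterisk marks a significant peak, and grey cells had no called peak. The RBFOX2 site of SRSF1, at 4.05 in V5 and 3.91 in wild type, had no called peak in any other RBP library.

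Whether the tag antibody and the antibody against the protein found the same sites was examined for the 3 RBPs with significant peaks. For RBFOX2, 3 of 5 V5 peaks overlapped a significant wild-type peak (60.0%, interval 14.7% to 94.7%), and 3 of 6 wild-type peaks overlapped a significant V5 peak (50.0%, 11.8% to 88.2%). Over the whole lists these shares were 46.6% and 29.6%. For LIN28, 3 of 17 V5 peaks did so (17.6%, 3.8% to 43.4%), and both wild-type peaks, against 28.8% and 81.8% over the whole lists. For HNRNPC, 1 of 4 isoform 1 peaks, 1 of 3 isoform 2 peaks and, with either isoform, 1 of 12 wild-type peaks (8.33%, 0.211% to 38.5%) were shared. Over the whole lists 22.7% of isoform 1 and 13.1% of isoform 2 peaks were shared with wild type, and 6.71% of wild-type peaks with isoform 1 and 11.3% with isoform 2. Every whole-list share lay inside the interval of the genes where one is given, so none of the overlaps can be called particular to the 7 genes.

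Overlap was also counted with any called peak, significant or not, a count that cannot fall below that of significant peaks alone. Of the 12 HNRNPC wild-type peaks, 11 overlapped a called peak of isoform 1 and 11 a called peak of isoform 2, all with a positive log2 fold. A negative log2 fold was held by only 15.2% of all called peaks of isoform 1 and 11.3% of isoform 2. Over the whole list, 69.4% of significant wild-type peaks overlapped a called peak of isoform 1 and 78.6% one of isoform 2. The overlapping isoform 1 peaks had a median log2 fold of 2.11 and a range of 1.40 to 3.33, and those of isoform 2 had a median of 2.10 and a range of 0.81 to 3.34. The exception in both was the TRA2A peak at 62 to 106 nt. Of the 17 LIN28 V5 peaks, 13 overlapped a called LIN28 wild-type peak, with a median log2 fold of 2.05 and a range of 0.07 to 3.47. Over the whole list 76.2% of significant LIN28 V5 peaks did so. No interval was computed for these overlaps with called peaks, so a difference from the whole lists was not tested.

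The tag-only libraries give a background for the tag antibodies, and the series has no such library for the antibodies against the proteins. The labels give no gel range for the RBP libraries, so ranges could not be matched. The tag-only libraries held 31 significant peaks in the 7 genes among 1106 called. Of these, 17 lay in SRSF3, 4 in SRSF2, 3 each in SRSF1 and TRA2A, 2 each in SRSF6 and SRSF7, and none in TRA2B. A significant tag-only site lay at 2 of the 12 HNRNPC wild-type peaks (16.7%, interval 2.09% to 48.4%), at 2 of the 17 LIN28 V5 peaks (11.8%, 1.46% to 36.4%) and at none of the remaining 20 RBP peaks. Over the whole lists the share was 7.07% in HNRNPC wild type and 16.6% in LIN28 V5, both inside those intervals. At a log2 fold of at least 2 for both kinds of peak, 14 of 32 LIN28 V5 peaks lay at such a site, against 29.7% over the whole list. For HNRNPC V5 isoform 2 it was 4 of 8 peaks, against 6.05%. None of the 7 RBFOX2 V5 and 9 RBFOX2 wild-type peaks lay at one, against 9.44% and 7.52% over the whole lists. With so few RBFOX2 peaks, a lower share than that of the whole lists could not be detected.

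The most recurrent tag-only site of these genes was in SRSF3, at 2448 to 2515 nt (chromosome 6, 36564537 to 36564604). It was called in all 14 tag-only libraries and significant in 4 of 7 FLAG-only and 3 of 7 V5-only libraries. The log2 fold had a low of 1.68, a median of 3.18 and a high of 4.07 in FLAG-only, and a low of 0.97, a median of 2.99 and a high of 4.64 in V5-only, so that the antibodies overlapped. No RBP library was significant there. LIN28 V5 had 2.64 with a −log10 p of 2.48, and the 3 HNRNPC libraries had no called peak. A further SRSF3 site near the 5′ end, at 95 to 171 nt, was significant in 3 FLAG-only libraries and 1 V5-only library, with medians of 2.88 in FLAG-only and 2.61 in V5-only.

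Outside SRSF3 the significant tag-only peaks did not recur, each lying at a place of its own. SRSF1 had them at 195 to 245, 1375 to 1413 and 1742 to 1783 nt, with log2 folds of 3.26, 3.08 and 3.32, all upstream of the LIN28 and HNRNPC peaks of that gene. SRSF2 had 4, spread over 110 to 2346 nt with log2 folds between 3.02 and 3.69. SRSF6 had 2 between 2652 and 2854 nt, both FLAG-only and both downstream of its RBFOX2 peaks. TRA2A had FLAG-only peaks at 9636 to 9676 and 9787 to 9839 nt, with 3.74 and 3.41, and a V5-only peak at 25840 to 25876 nt, with 3.03.

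In the gel ranges, significant peaks of the 7 genes were most numerous at 125 to 200 kDa for both antibodies, as were those of the whole lists. Per 1000 significant peaks of the library, FLAG-only had 0.81 in the 7 genes at that range. Its other ranges ran from 0.25, at 100 to 175 kDa, to 1.18, at 50 to 125 kDa. V5-only had 1.37 at 125 to 200 kDa, and its other ranges ran from 0 to 2.22, the latter at 175 to 250 kDa. FLAG-only had 1 of 79 called peaks at 25 to 100 kDa, 3 of 86 at 50 to 125, 1 of 69 at 75 to 150, 1 of 77 at 100 to 175, 9 of 65 at 125 to 200, 2 of 69 at 150 to 225 and 1 of 81 at 175 to 250. In the same order of ranges, 1.21%, 3.75%, 6.70%, 6.43%, 22.1%, 11.5% and 6.86% of all FLAG-only called peaks were significant. V5-only had 0 of 85, 0 of 89, 0 of 70 and 0 of 97 called peaks in the 4 lower ranges, which allow shares of up to 3.53%, 3.37%, 4.29% and 3.09%. It had 9 of 81 at 125 to 200 kDa, 2 of 79 at 150 to 225 and 2 of 79 at 175 to 250. In the same order of ranges, 0.555%, 1.10%, 2.69%, 1.92%, 11.5%, 3.10% and 1.86% of all V5-only called peaks were significant. In 12 of the 14 tag-only libraries the share in the 7 genes was below that of the whole list, the exceptions being FLAG-only at 25 to 100 kDa and V5-only at 175 to 250 kDa.

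**Figure D5:**
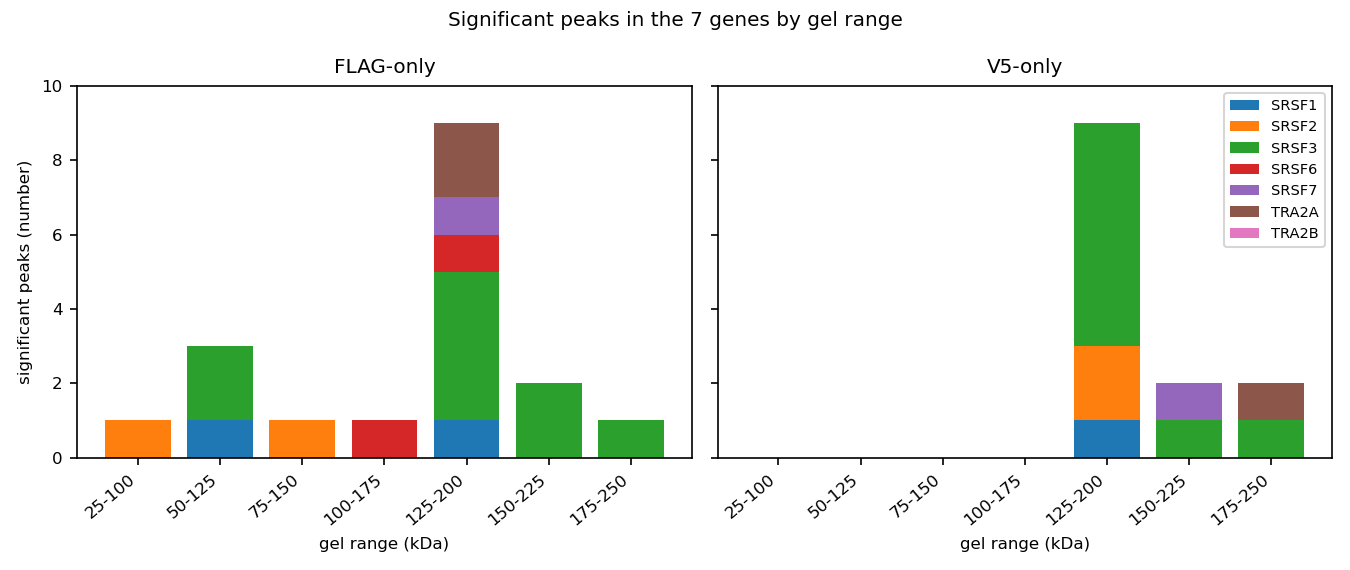
Number of significant peaks in the 7 genes, stacked by gene (colour), in the FLAG-only (left) and V5-only (right) libraries of the 7 gel ranges. Both antibodies reach 9 peaks at 125 to 200 kDa, where SRSF3 contributes 4 in FLAG-only and 6 in V5-only.

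A difference between the antibodies was not detectable in any of the 7 genes. SRSF3 had 1.29 ± 1.5 significant peaks per library in FLAG-only and 1.14 ± 2.19 in V5-only (SD, n = 7 ranges), with FLAG-only higher in 2 ranges, V5-only higher in 1 and 4 equal (two-sided exact sign-flip permutation p = 1). SRSF6 had 0.286 ± 0.488 in FLAG-only and 0 in V5-only, with FLAG-only higher in 2 of 7 ranges (exact sign-flip permutation p = 0.5). The p of the remaining 5 genes in the same exact permutation test was 1. These 7 values are not adjusted. The smallest p that 7 ranges allow is 0.0156, but at most 3 ranges of a gene differed between the antibodies, and with 3 the smallest is 0.25, so the test could not have passed 0.05. Both antibodies of a range were set against the same input, and adjacent ranges overlap. Separate cultures are not mentioned in the labels, so the spread between libraries may be technical.

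The opposite strand of the 7 spans, which serves as a comparison for the strand rule, held 6 called peaks over the 25 libraries. All lay across from SRSF2, in 5 libraries, and none was significant.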

How the data were processed

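Peak lists of 25 eCLIP libraries of HEK293T cells were used, 1 per library, and the 18 input samples entered only through the authors' values. Per the submitters' processing notes, reads were handled with cutadapt, STAR, GATK, Picard and SAMtools on hg19, without versions. Which program called the peaks is not stated in the labels. The deposited lists have no header. They hold the authors' −log10 p per peak, from 0 to a cap of 400 with a lower ceiling at 15.7, and the authors' log2 fold of the immunoprecipitation over its input. Both describe or filter peaks within a list. Peaks had been called per library.

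The members, threshold and comparisons were chosen with earlier results of these data known. BED starts were raised by 1, peaks were assigned to genes by overlap on the same strand, and exact binomial intervals and exact permutation tests were computed with Python 3.11.15, pandas 2.3.3, numpy 2.4.6 and scipy 1.17.1. Overlap shares were also taken over all significant peaks of each list. Functions were tested on simulated intervals with known answers. Up to 3 regions per gene are named, ordered by the number of significant RBP libraries and then by the highest log2 fold, together with the strongest peak of each RBP. Other peaks named, tag-only sites included, were chosen after their values were seen. Alternatives changed the threshold, the overlap, the joining of peaks and the pairing by range. Other SR genes were not analysed here, because the annotation at hand is of GRCh38 and coordinates were not converted.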

Additional observations from a re-analysis of the deposited data

Results flagged for a closer look

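In 9 of 30 sets of 7 values from the tag-only libraries, 1 value stood well apart from the other 6. About 1 in 20 sets, or 1.5 sets here, would do so by chance. The sets are not independent, and most counts in them are 0, so that a lone peak is enough. At 125 to 200 kDa the 7 genes had 9 significant peaks in FLAG-only, where the next library had 3, and 9 in V5-only, where the next had 2. That range also gave the values set apart in V5-only for SRSF3, with 6 significant peaks, SRSF2, with 2, and SRSF1, with 1, and in FLAG-only for TRA2A, with 2, and SRSF7, with 1. The remaining values were 1 SRSF7 peak in V5-only at 150 to 225 kDa and 1 TRA2A peak in V5-only at 175 to 250 kDa. The range of 125 to 200 kDa also had the highest share of significant peaks over whole lists, 22.1% in FLAG-only and 11.5% in V5-only. Per 1000 significant peaks of the library, the 7 genes had 0.81 there in FLAG-only and 1.37 in V5-only. Neither was the highest of its antibody, which was 1.18 in FLAG-only and 2.22 in V5-only. The part of the whole-list share in these counts was not tested.

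The tagged library had more significant peaks in the 7 genes than wild type for LIN28, a difference of 15, and fewer for HNRNPC, with −8 in isoform 1 and −9 in isoform 2, and for RBFOX2, with −1. This difference in direction was not tested, there being a single library of each form. Over the whole lists LIN28 V5 had 7780 significant peaks against 2020 in LIN28 wild type, and HNRNPC V5 isoform 1 had 375 and isoform 2 1168 against 1357 in HNRNPC wild type.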

How the results depend on the processing

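FMR1 (both libraries) and DGCR8 wild type stayed at 0 significant peaks under each alternative run, and requiring a peak to lie wholly inside a span moved no RBP count past 1.5 times. At a −log10 p of at least 5, HNRNPC V5 isoform 1 had 1 peak, isoform 2 had 0 and RBFOX2 V5 had 3, and significant peaks were left in 1 gene for isoform 1, 0 for isoform 2 and 3 for LIN28 V5. The count of genes fell to 0 in FLAG-only at 25 to 100, 100 to 175 and 175 to 250 kDa and to 1 in V5-only at 150 to 225 and 175 to 250 kDa. No region was then shared by RBPs, isoform 2 overlapped 0 wild-type peaks, and 0 LIN28 V5 peaks were at tag-only sites.

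At a log2 fold of at least 2, significant peaks numbered 13 in HNRNPC V5 isoform 1, 8 in isoform 2, 21 in HNRNPC wild type, 32 in LIN28 V5, 6 in LIN28 wild type and 2 in DGCR8 FLAG. Genes with one numbered 2 in LIN28 wild type and DGCR8 FLAG. In FLAG-only, from the lowest range to the highest and without 125 to 200 kDa, they numbered 4, 4, 7, 6, 4 and 6, and in V5-only over all 7 ranges 2, 2, 6, 4, 7, 5 and 4. HNRNPC wild-type peaks overlapped were then 8 with either isoform, and LIN28 ones 6. Peaks at tag-only sites were 3 of 13 in isoform 1, 4 of 8 in isoform 2 and 5 of 21 in HNRNPC wild type. They were 14 of 32 in LIN28 V5 and 3 of 6 in LIN28 wild type. Over the whole lists the shares were, in the same order, 12.3%, 6.05%, 15.8%, 29.7% and 31.1%. None of 7 RBFOX2 V5, 9 RBFOX2 wild-type and 2 DGCR8 FLAG peaks lay at one, against 9.44%, 7.52% and 27.0%. With so few peaks, a lower share than that of these 3 whole lists could not be detected. Counting only sites significant in at least 2 tag-only libraries, at the threshold of the report, left 0 HNRNPC wild-type and 0 LIN28 V5 peaks.

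Joining peaks left LIN28 V5 with 11 sites when abutting and 10 within 50 nt. Within 1 kb, 6 HNRNPC wild-type peaks had an isoform 1 peak, 4 an isoform 2 peak, and 6 RBFOX2 wild-type peaks a V5 peak, and with 50% of both peaks shared 1 RBFOX2 peak did. The FLAG-only minus V5-only difference turned negative for SRSF3 at a log2 fold of at least 2 (−0.86) and per 1000 significant peaks (−0.12), and for TRA2A per 1000 (−0.13) and without 125 to 200 kDa (−0.17). SRSF7, at 0 in the report, had −0.06 per 1000 and −0.17 without 125 to 200 kDa. TRA2B, also at 0, had a difference of 1 at a log2 fold of at least 2 (exact sign-flip permutation p = 0.0625, the lowest of any gene and alternative). None passed the test under any alternative, paired by range or not. The smallest p that the differing ranges allowed is not given for the alternatives, so this does not show that the antibodies were alike. The cause of these moves was not tested. With under 20 significant peaks per RBP, counts of 1 or 2 turn on single peaks near the threshold.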
